A study of Mus musculus with 2 samples.

Results

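The Dlk1-Meg3 imprinted domain of mouse chromosome 12 was described in DNase-seq data from the left cerebral cortex, from its DNase I hypersensitive sites (DHSs, stretches of DNA that the enzyme cuts readily) and its footprints (short protected stretches, mostly inside them). The members were 6 genes, Dlk1, Meg3, Rtl1, Rian, Mirg and Dio3, of 55413 annotated genes. The domain was taken from the first to the last member with 50 kb on either side, chr12:109402823-110331097 on mm10, which is 928275 bp. It held 22 of the 90059 peaks of replicate 1 and 64 of the 175597 peaks of replicate 2, and 49 of 199455 and 157 of 416840 footprints. Peaks of both libraries that touched were merged, and 21 of the 78165 sites found in both lay here.

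The tissue came from female B6CASTF1/J mice aged 14 days, the F1 cross between C57BL/6J and CAST/EiJ. The labels number 2 of them separately but under 1 donor record, so whether they are 2 animals is not settled. Each number had 1 library, and both libraries were in the same group. No treatment or genotype was compared, so no test was made. Mean ± SD over n = 2 describes the spread between these libraries, which may be partly or wholly technical. The files do not separate the parental alleles, so every value pools the maternal and the paternal chromosome. In bulk tissue, fewer cells with an open site and less opening per cell cannot be told apart.

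As background, the domain is imprinted: in many tissues Dlk1, Rtl1 and Dio3 are transcribed mainly from the paternal chromosome and Meg3, Rian and Mirg from the maternal one. Methylation of an intergenic control region between Dlk1 and Meg3 on the paternal chromosome sets this pattern. The maternal RNAs include hosts of a long series of snoRNAs and microRNAs, and in the brain they are abundant in neurons.

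The sequences of 4 sites are given first because the results below return to them. They are the Meg3 promoter and the strongest site of the domain, just inside Meg3, then the strongest site downstream of Mirg and, of the sites between Dlk1 and Meg3, the strongest beside the Meg3 promoter. All are the plus strand of GRCm38.p6, 5′ to 3′, and the promoter is the RefSeq entry. Capitals mark bases inside a footprint of both libraries.
Meg3 promoter, chr12:109540746-109541045: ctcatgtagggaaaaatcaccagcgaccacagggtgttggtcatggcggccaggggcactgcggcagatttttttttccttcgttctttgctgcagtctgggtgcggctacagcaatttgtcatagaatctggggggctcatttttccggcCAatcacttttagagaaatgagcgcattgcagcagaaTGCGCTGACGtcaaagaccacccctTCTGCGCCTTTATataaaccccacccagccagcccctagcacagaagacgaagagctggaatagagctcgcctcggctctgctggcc
Meg3 internal site, chr12:109542941-109543160: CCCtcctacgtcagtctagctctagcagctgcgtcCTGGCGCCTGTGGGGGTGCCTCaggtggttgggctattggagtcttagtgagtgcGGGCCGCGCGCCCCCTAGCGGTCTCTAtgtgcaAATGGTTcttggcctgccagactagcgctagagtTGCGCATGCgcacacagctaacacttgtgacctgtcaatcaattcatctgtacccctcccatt
Site after Mirg, chr12:109749941-109750220: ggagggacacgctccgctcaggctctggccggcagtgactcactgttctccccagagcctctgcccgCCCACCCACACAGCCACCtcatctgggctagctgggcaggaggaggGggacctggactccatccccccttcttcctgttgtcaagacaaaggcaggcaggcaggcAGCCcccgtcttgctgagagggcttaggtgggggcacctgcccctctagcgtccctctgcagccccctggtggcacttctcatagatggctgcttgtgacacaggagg
Site between Dlk1 and Meg3, chr12:109491761-109492000: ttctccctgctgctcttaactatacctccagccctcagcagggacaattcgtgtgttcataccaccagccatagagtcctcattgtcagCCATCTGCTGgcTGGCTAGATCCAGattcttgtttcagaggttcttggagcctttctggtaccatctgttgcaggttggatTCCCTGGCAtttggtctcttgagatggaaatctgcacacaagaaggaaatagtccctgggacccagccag

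Accessibility of the member promoters was uneven. Meg3 carried a strong peak just inside the gene and a weaker one at its most 5′ start site. Mirg had a still weaker peak near its 3′ end, and Rtl1, Rian and Dio3 had none. A promoter was called accessible where each library had a peak overlapping a window that reached 1 kb to both sides of a transcription start site (TSS) of the gene. By this rule 2 of the 6 members were accessible, Meg3 and Mirg, both of them long non-coding RNA genes. None of the 3 protein-coding members was, where 62.7% of protein-coding genes were accessible. Among the 3 long non-coding members it was 2, where 25.6% of long non-coding RNA genes were. Meg3, Rian and Mirg have 11, 19 and 11 start sites, and that share is not matched for the number of start sites. With so few members the counts of accessible promoters describe the domain only.

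**Figure D1:**
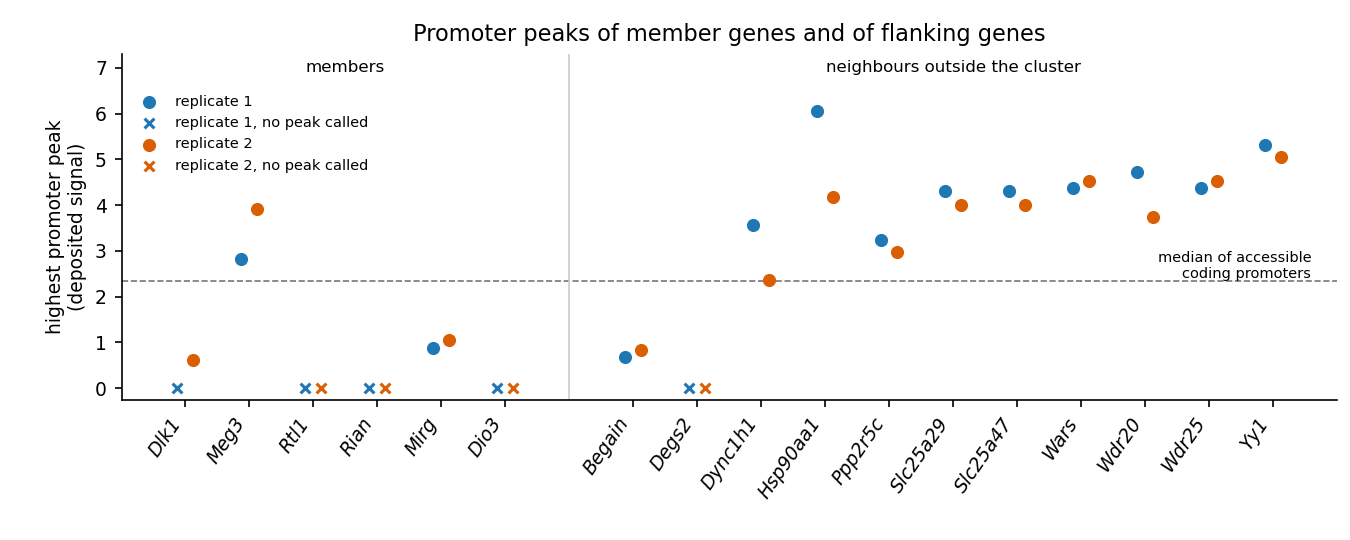
Highest promoter peak (deposited signal, unit not stated) of the 6 members and of 11 genes flanking the cluster. Each point is 1 library, crosses mark genes with no peak called, and the dashed line is the median of accessible protein-coding promoters (2.33). Meg3 lies above the line in both libraries and Mirg below it, while Rtl1, Rian and Dio3 have crosses only. The Meg3 points are those of its internal site. At its most 5′ start site Meg3 had 1.31 and 1.56, below the line.

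Dlk1, a transmembrane protein related to Notch ligands and known for restraining fat cell differentiation, lies on the plus strand at chr12:109452823-109463336. No peak of replicate 1 lay within 1 kb of any of its 9 start sites. In replicate 2 a single peak of 0.622 lay at chr12:109453121-109453314, in an exon of both transcripts that span it, and reached 8 of them. The Dlk1 promoter therefore counted as open in 1 library only, and 67.8% of protein-coding genes had a peak in replicate 2 by the same rule. The deposited cut-rate track, which lists stretches whose local cleavage passed a false discovery rate of 0.05, gave the same contrast: 0 bp were listed within 1 kb of the most 5′ start site in replicate 1 and 212 bp in replicate 2, with a lowest q-value of 0.000197. Upstream of Dlk1, 3 sites were found in both libraries. The strongest of them, at chr12:109441461-109441700, had signals of 0.832 and 1.08.

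Rtl1, a gene derived from a retrotransposon whose protein is needed in the placenta, lies on the minus strand at chr12:109589193-109600330. It had neither a peak nor a footprint in its body or at its start site in either library. Dio3, the deiodinase that inactivates thyroid hormone, lies at chr12:110279068-110281097 and likewise had none. Its promoter differed from that of Rtl1 in base composition. The observed over expected number of CpG dinucleotides within 500 bp of the start was 0.884 at Dio3 and 0.244 at Rtl1. The Dio3 value exceeded that of 90.0% of protein-coding genes. Of protein-coding promoters with a ratio of at least 0.6, 91.8% were accessible in both libraries at their most 5′ start site. Dio3 belonged to the remainder. Below that ratio, where Dlk1 (0.585) and Rtl1 lay, 28.5% were. The cut-rate track listed no stretch within 1 kb of the most 5′ start site of Rtl1 or of Dio3 in either library.

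Meg3, a maternally transcribed long non-coding RNA, starts at position 109541001 and ends at 109571726 on the plus strand. Its highest promoter peak was 2.83 in replicate 1 and 3.92 in replicate 2, a mean of 3.37 ± 0.770 (SD, n = 2). Of the 3430 accessible promoters of long non-coding genes, 80.5% had a lower mean. That peak came from the start sites at 109542023 and 109542268. At the most 5′ start site the peaks were 1.31 and 1.56, a mean of 1.43 ± 0.175 (SD, n = 2). The internal site was thus higher than the site at the most 5′ start in both libraries. The start site at 109544498 had a weaker peak of 0.378 and 0.448, and the 5 start sites downstream of it had none.

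**Figure D2:**
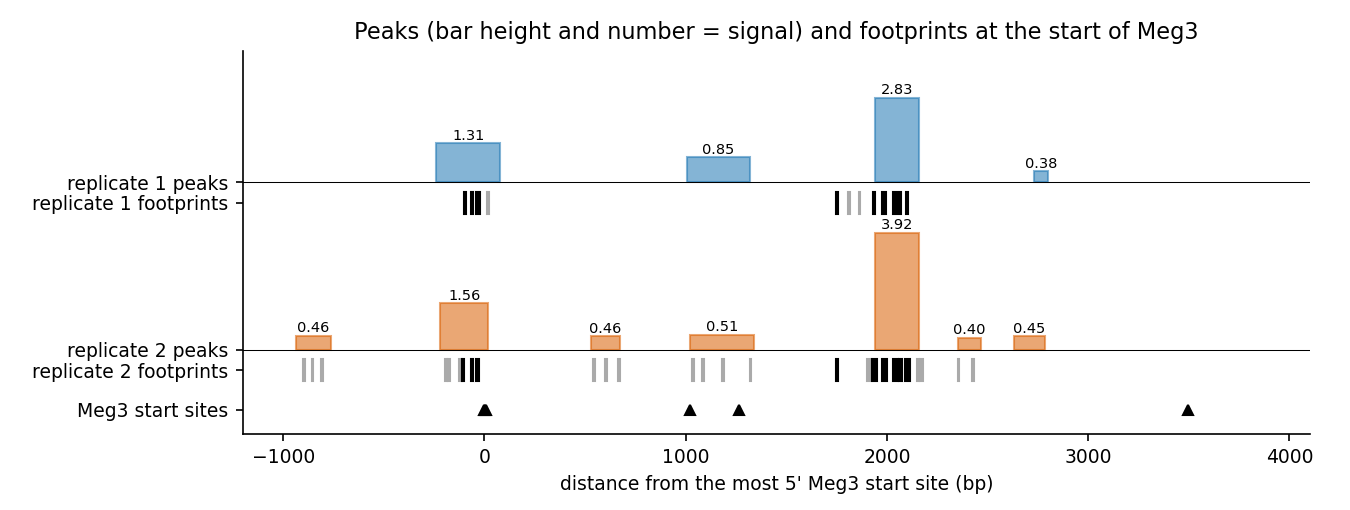
Peaks and footprints from 1.2 kb upstream to 4.1 kb downstream of the most 5′ Meg3 start site (x axis, bp), for each library. Bar height and the number on it are the deposited signal, black and grey blocks are footprints that do and do not overlap a footprint of the other library, and triangles are annotated start sites. The tallest bar in both libraries lies about 2 kb inside the gene, with 2.83 and 3.92.

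The internal Meg3 site at chr12:109542941-109543160, centred 2.05 kb downstream of the most 5′ start, was the highest of the domain. Of all sites found in both libraries, 93.9% had a lower mean signal. Its middle is exonic in 1 of the 5 Meg3 transcripts that span it and intronic in the others. It held 5 footprints in replicate 1 and 6 in replicate 2. Of 31-base words in this site, 100% occurred at 1 place in the reference, whereas 77.5% did in the Meg3 promoter site and 57.7% in the weak site 168 bp wide at chr12:109543633-109543800. No source used here says how reads that fit several places were treated.

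The Meg3 promoter site, chr12:109540761-109541080, had its footprints close to the start. A full cyclic AMP response element, TGACGTCA, lies 57 to 50 bases before the RefSeq start, and the share of RefSeq promoters that hold it on either strand was 1.79%. A footprint covered its first 5 bases, TGACG, in both libraries, from 109540934 to 109540943 in replicate 1 and from 109540933 to 109540943 in replicate 2. The letters TATAAA lie 25 to 20 bases before the RefSeq start, and 13.6% of RefSeq promoters hold them on either strand. They lay wholly inside a footprint of replicate 1 that ended at 109540977. The footprint of replicate 2 there ended at 109540971, so it touched only the first base of the match. A match is a description of the letters and names no bound protein.

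In the internal Meg3 site, one footprint of each library, 109543029 to 109543057 and 109543031 to 109543057, enclosed the letters GCCCCCTAGCGG. These match, on the minus strand, the core consensus of CTCF, a zinc finger protein that organises chromatin loops, once the last 2 letters of the core are left out. This form was chosen after the data were seen, because neither the full core nor another short CTCF form matched in this site. It occurred in 4.00% of the central 200 bp of all sites found in both libraries, and in 2 of the 21 domain sites. Over the whole width of the sites it matched 3 of 21, the others being the site at chr12:109542006-109542340 and the site after Mirg, and a footprint of replicate 2 touched each of these 3 matches. The full consensus of NRF1, a transcription factor of nuclear genes for mitochondrial proteins, also lies in the internal site, at 109543099 to 109543108, and 0.471% of all sites hold it in their central 200 bp. A footprint enclosed it in replicate 2, from 109543090 to 109543113, and one overlapped most of it in replicate 1, from 109543098 to 109543106.

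Rian, the maternal RNA that hosts C/D box snoRNAs, spans chr12:109603940-109661716 and has 19 start sites. No peak or footprint of either library lay within 1 kb of any of them. Within its body replicate 1 had no peak and replicate 2 had 1, of 0.373, in an intron at chr12:109615465-109615557. Its promoter had the lowest CpG ratio of the members, 0.0674. Among long non-coding genes with a ratio under 0.6, as at Meg3 (0.519), Rian and Mirg (0.240), 16% were accessible at the most 5′ start site. Of the 23 snoRNA genes annotated in the domain, 0 had a promoter peak in either library, where 13.6% of all 1507 snoRNA genes had one.

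Mirg, a maternal RNA that hosts microRNAs, spans chr12:109729764-109749460. Its peak was 0.871 in replicate 1 and 1.06 in replicate 2, a mean of 0.966 ± 0.134 (SD, n = 2), and 36.1% of accessible long non-coding promoters had a lower mean. The peak lay at chr12:109748381-109748620, 1 kb or less from start sites at 109747903 and 109747964, close to the 3′ end of the gene. Its most 5′ start site had no peak and no listed cut-rate stretch in either library. By that start site alone, Meg3 was the sole accessible member, where 24.7% of long non-coding and 57.6% of protein-coding genes were accessible. The Mirg call therefore rests on start sites near the end of the gene. Just past that end lay a stronger site, chr12:109749801-109750220, with 1.05 and 1.53 (mean 1.29 ± 0.343, SD, n = 2). It was 2047 bp from the nearest Mirg start site, outside the promoter window. A footprint of replicate 2 in it, 109750168 to 109750187, enclosed the letters GCCCCCTGGTGG, another match to the shortened CTCF core, and no footprint of replicate 1 touched them.

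RefSeq places 58 microRNA hairpins in the domain, 24 of them between Rian and Mirg and 14 in the body of Mirg. Of the 58, 0 overlapped a site of either library, where 10.1% of all 1005 RefSeq hairpins did. Neighbouring hairpins share their surroundings, so they are not independent of each other. The nearest lay 421 bp from one, and the median distance was 8918 bp.

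Sites were clustered around Meg3 and sparse across the genes after it. The Meg3 body held 3 sites found in both libraries over 30.7 kb, or 97.6 per Mb, and the 77.7 kb between Dlk1 and Meg3 held 4. From chr12:109543801 to 109748380, which covers most of Meg3, then Rtl1, Rian and most of Mirg, no site was found in both. This gap of 205 kb was the longest of the domain. It was longer than 98.2% of the 76252 gaps between such sites on the autosomes, whose median was 13.4 kb. The number of autosomal gaps at least as long was 1343, and this gap was picked for its length. It held 5 sites of replicate 2 alone. Long gaps were not particular to this stretch. Between Mirg and Dio3, gaps of 178 kb and 131 kb were longer than 97.8% and 96.3% of the autosomal gaps. From the start of Meg3 to the end of Mirg, 97.2% of 31-base words occur at 1 place in the reference. The 530 kb between Mirg and Dio3 held 9 sites found in both, or 17 per Mb.

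**Figure D3:**
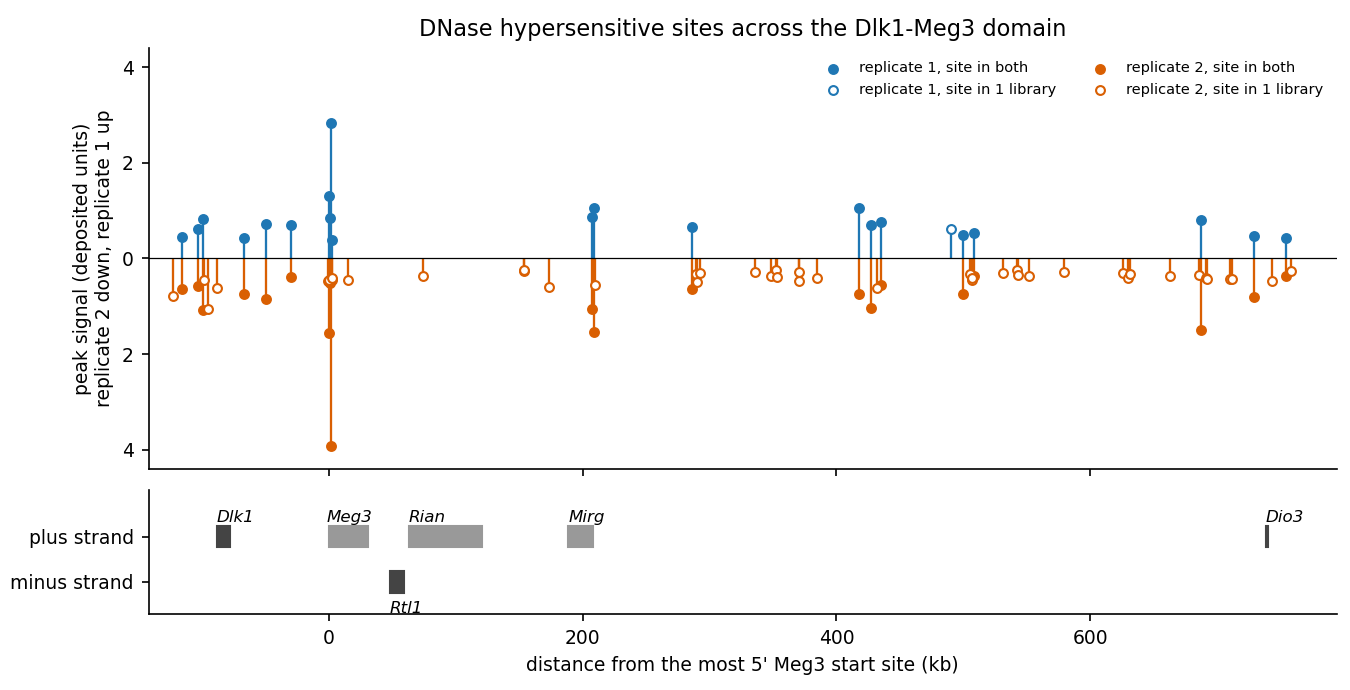
Peak signal (y axis, deposited units; replicate 1 upward, replicate 2 downward) at each site across the domain, against distance from the most 5′ Meg3 start (x axis, kb), with the member genes below by strand. Filled points are sites found in both libraries and open points sites of 1 library. The tallest pair, 2.83 and 3.92, stands at Meg3, and no filled point lies over Rtl1 or Rian.

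The stretch between Dlk1 and Meg3 is where the intergenic control region lies, whose coordinates were not used here. Of the 4 sites found in both libraries there, the one nearest Meg3 was its promoter. The others had signals of 0.432 and 0.752 at chr12:109473781-109474020, 0.717 and 0.846 at chr12:109491761-109492000, and 0.709 and 0.378 at chr12:109511501-109511760. None of these 3 exceeded 1 in either library, while the promoter site did in both. Between the last of them and the next site upstream of Meg3, 28302 bp from 109511761 to 109540062 held no peak of either library. The cut-rate track listed 15 bp of it in replicate 1 and 2 bp in replicate 2. In the site at 109491761, a footprint of both libraries enclosed the letters CATCTG, the reverse complement of the NEUROD-type E-box CAGATG. On either strand, 20.2% of all sites found in both libraries hold it in their central 200 bp, as do 8 of the 21 domain sites. Over their whole width the domain sites held 12 matches, and this was the only 1 enclosed in both libraries. A second CATCTG of the same site, at 109491912, was touched by no footprint.

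After Mirg the next member, Dio3, is far away, and sites were spread thinly between them. The strongest beside that just past Mirg, at chr12:110227921-110228260 in an intron of Gm40576, was 0.809 in replicate 1 and 1.5 in replicate 2. Sites at chr12:109958801-109959000, with 1.06 and 0.747, and at chr12:109968361-109968640, with 0.701 and 1.04, were the next in order of mean. The libraries took opposite orders at these 2 sites. Of the sites found in both libraries, the last before Dio3 was chr12:110269781-110270000, with 0.478 and 0.796. A peak of replicate 2 alone, of 0.478, lay past the other end of Dio3, at chr12:110283901-110284141. Among the 115 annotated genes of the domain that are not members, 67 were microRNA and 23 snoRNA genes. Of the 115, 5 had a promoter peak in both libraries and 10 in replicate 2. The 5 in both were Gm27596, Gm27300 and Mir1906-1, whose windows hold Meg3 sites, Mir3072, whose window holds the Mirg site, and the pseudogene Gm9661, with 0.663 and 0.642. In replicate 2 alone they were B830012L14Rik (0.254), Mir329 and Mir494 (0.587 each), 4930511J24Rik (0.478) and Gm47188 (0.353). The share over all genes of the same mix of types was not computed, so these counts describe the domain only.

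Per Mb the domain held 22.6 sites found in both libraries. Over 2581 windows of the same length the median was 28, with quartiles of 14.0 and 44.2, and 39.0% of windows had fewer. Of the 21 sites, 6 had their middle within 1 kb of a start site, 3 lay in introns and 12 between genes. The 6 are 28.6%, where 32.3% of all such sites lay within 1 kb of a start.

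Replicate 2 had more called sites, most of them weak. Of the replicate 1 peaks in the domain, 21 of 22 (95.5%, 95% Wilson interval 78.2 to 99.2) touched a peak of replicate 2, against 89.2% over the genome. Of the replicate 2 peaks, 21 of 64 (32.8%, 22.6 to 45.0) touched a peak of replicate 1, against 45.6%. Over peaks of matching signal (deciles of each library), the shares were 91.6% in replicate 1 and 42.6% in replicate 2. Neighbouring peaks may depend on each other, which the intervals leave out. The 43 sites of replicate 2 alone had signals from 0.234 to 1.07 with a median of 0.398, and the 21 found in both had a replicate 2 median of 0.747. At the 21 sites the median log2 ratio of replicate 2 to replicate 1 was 0.25 (SD 0.52), with 13 of 21 above 0, and over all sites it was -0.054 (SD 0.52). None of the 21 was over 2-fold apart, where 5% of all sites were. These counts depend on the scale of the signal, whose unit is not stated: with each signal divided by its library's median, 19 of 21 lay above 0, against 85.2% of all sites, and 8 of 21 were over 2-fold apart, against 18.1%. The median log2 ratio was then 0.80 in the domain and 0.50 over all sites.

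**Figure D4:**
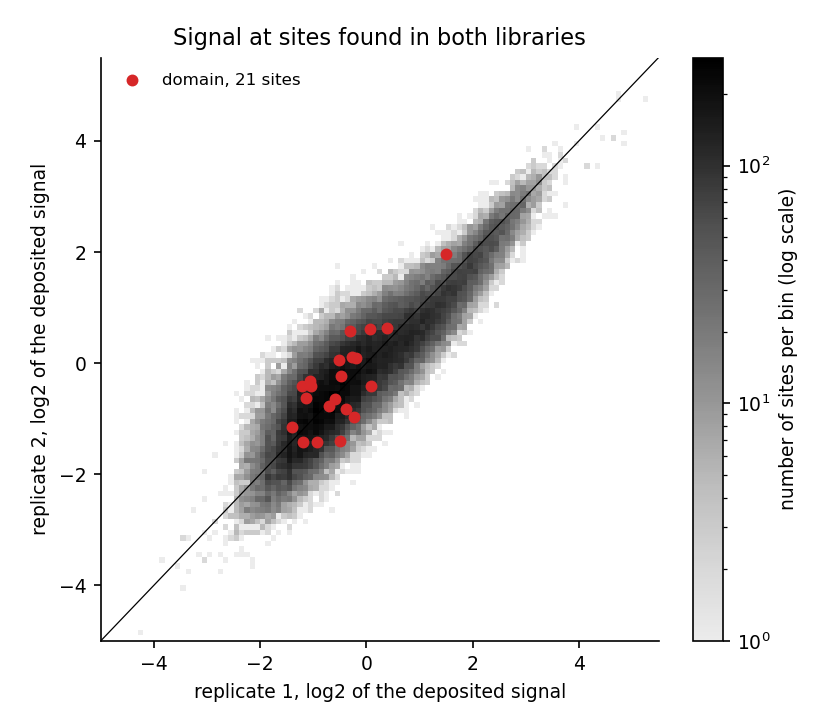
Log2 of the deposited signal in replicate 1 (x axis) and replicate 2 (y axis) at all 78165 sites found in both libraries (grey, bins shaded by number of sites on a log scale) and at the 21 in the domain (red). The line marks equal signal on the deposited scale; 13 of the 21 red points lie above it (19 of 21 after scaling by the library medians), and the internal Meg3 site is the highest.

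Footprints overlapped between the libraries in part. The 21 sites held 43 footprints in replicate 1 and 70 in replicate 2. A footprint of the other library overlapped 65.1% (Wilson 50.2 to 77.6) and 40% (29.3 to 51.7) of them, where the genome-wide shares were 65.9% and 45.2%. Of the 21 sites, 17 held a footprint in replicate 1 and 20 in replicate 2, against 84.1% and 93.6% of all sites. The intervals cover counting error only.

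Promoters of genes outside the cluster were mostly open. Of 11 flanking genes, 10 were accessible in both libraries, all but Degs2, with a median signal of 4.19. Slc25a29 and Slc25a47 had identical values, as did Wars and Wdr25, so these genes do not count independent peaks. Yy1, a zinc finger transcription factor, had 5.32 and 5.05, and Begain, a postsynaptic protein and the neighbour of Dlk1, had 0.686 and 0.841. Of 34 genes of other imprinted domains, 30 were accessible, with a median of 1.59, the exceptions being Ddc, H19, Igf2 and Ndn. Identical values recurred here too, at Peg3 and Usp29, at Nap1l5 and Herc3, and at Peg10 and Sgce. Of 20 genes that act on or with the domain, 18 were, all but Dio1 and Dppa3, with a median of 2.24. Among them Zfp57 and Trim28, which maintain imprinted methylation, had 0.547 and 0.533, and 3.11 and 3.32. By the same rule 62.7% of all protein-coding genes were accessible, and the median of all accessible protein-coding promoters was 2.33. The tissue label was checked by markers: 11 of 12 neuron, 3 of 4 astrocyte, 3 of 4 oligodendrocyte lineage and 2 of 3 microglia markers were accessible in both libraries, and 0 of 6 markers of other tissues. Of those 6, Alb (0.184), Myh6 (0.383) and Ttr (0.538) had a peak in replicate 2. Of 3 pituitary and endocrine markers 1 was accessible in both libraries, Gh, with 0.678 and 0.503. At the most 5′ start site alone, 7 of 12 neuron and 2 of 4 astrocyte markers were accessible in both libraries. So were 2 of 4 oligodendrocyte lineage and 1 of 3 microglia markers, where 57.6% of protein-coding genes were. With so few markers, the astrocyte, oligodendrocyte lineage and microglia counts cannot be told apart from the shares of all protein-coding genes.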

How the data were processed

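The 2 DNase-seq libraries formed 1 group, so no comparison between groups was made. Per the labels, the authors aligned to mm10 and deposited peaks, footprints and a cut-rate track for each library; per the file notes, peaks were derived from each library's own alignments. No aligner, peak caller or footprint caller is named in the sources used here. The peak signal is the height the authors deposited, with no unit stated. Its values were whole multiples (tolerance 0.1) of 0.00771 in replicate 1 and 0.00498 in replicate 2. The deposited footprints carry a constant p-value of 0.01, and the cut-rate track q-values of at most 0.05. The larger of 2 deposited peak lists was used. No read or fragment totals were used, so depth is unknown.

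Genes came from GENCODE M21 and coordinates, printed 1-based, fitted GRCm38.p6. Any overlap of 1 bp counted. In all, 17 motifs and 1 added later were searched on both strands, as exact letters. The CRE contains TGACG, and the NEUROD-type E-box is also an E-box (CANNTG). The members, the gene lists, motifs and rules for naming were chosen with earlier results of these data known. Named were all members, other domain genes with a promoter peak, the strongest sites and examples from each list. Interval functions were tested on simulated data. Python 3.11.15, NumPy 2.4.6, pandas 2.3.3, Numba 0.67.0 and Matplotlib 3.10.9 were used. Alternatives changed the peak list, window, TSS, flank, overlap, signal scaling and library.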

Additional observations from a re-analysis of the deposited data

How the results depend on the processing

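Over 59 alternative values of 10 results and settings, 48 were labelled as kept, 11 as moved and 0 as reversed. Only the log2 ratio could be labelled as reversed. For the shares of peaks that touched the other library, the limit was the SD between the 2 libraries' shares, 44.3 points. This limit is wide: shares of 77.3% to 96.6% in replicate 1 and 26.6% to 54.8% in replicate 2 all counted as kept. With only the most 5′ start site, 1 member was accessible in both libraries (Meg3) instead of 2; with a library left out the count was 2 to 3. The Meg3 signal was 1.43 in that setting and with a 500 bp window, and the Mirg signal 1.29 with a 2 kb window, which reaches the site after the gene. With the smaller peak list, 12 sites were found in both libraries, or 12.9 per Mb; with a library left out the sites of the remaining one numbered 22 to 64, or 23.7 to 68.9 per Mb. Footprint overlap of at least 50% left 30.2% and 18.6%. With each signal divided by its library's median, the median log2 ratio was 0.80, where all sites had 0.50. Then 8 of the 21 sites were over 2-fold apart instead of 0, against 18.1% of all sites instead of 5%. The medians, 0.678 in replicate 1 and 0.463 in replicate 2, came from peak lists of unequal length, 90059 and 175597 peaks. No paired analysis was possible because both libraries belong to 1 group. Depth is unknown, so a missing peak means that none was called, not that the DNA was closed. Alleles were not separated.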
